A study of Mus musculus with 104 samples.

Results

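The Fhit window was the 2.5 Mb of mouse chromosome 14 that begin after 10 Mb and end at position 12500000 of the mm9 build; a junction was a member by its place alone, but the locus itself was picked for its junctions. It held 619 of the 530589 far junctions of the series, far meaning more than 5 Mb from the library's own bait break. Fhit (gene ID 14198, also listed under the synonym Fra14A2) encodes a diadenosine triphosphate hydrolase, and it is one of the largest genes of the mouse, with 1611970 bases in the GRCm38 annotation. Common fragile sites are chromosome regions that break when DNA replication is slowed. They often coincide with very large, late-replicating genes, and the human counterpart of this locus, FRA3B in FHIT, is the best-known example. Aphidicolin (APH) slows replication by inhibiting the replicative DNA polymerases. The locus was taken up with earlier results of these data known, so its levels below are a description and carry no p-value. Where a fit's call for the window is given, it is likewise a description and no independent test.

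The samples were 104 experiments of high-throughput genome-wide translocation sequencing (HTGTS), which fixes a double-strand break at a bait site and sequences what it is joined to. They formed 24 pools of 4 conditions with 6 pools each: neural progenitor cells (NPC) treated with APH, NPC treated with DMSO, embryonic stem cells (ESC) treated with APH and ESC treated with DMSO. The NPC were differentiated in culture from the ESC, and each condition held 2 lines with baits on chromosomes 7, 12 and 15. All cells, controls included, were Xrcc4-/- p53-/- on a C57BL6/129SVE background, so every junction was formed without the end-joining factor XRCC4. The dose of APH is not given in the sources used here, and nothing in the labels says whether lettered experiments came from separate cultures. Far junctions per pool ran between 12521 and 88541 in NPC and between 4700 and 12931 in ESC. Intervals in brackets are exact 95% binomial intervals and cover counting error only, because PCR copies read without a molecular tag cannot be told from separate molecules.

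The NPC libraries of bait 15 shared junctions across lines and across treatments. In 8 matched pairs, between 61.0% and 81.3% of the far junctions of a line 1 experiment were found again, with the same position, strand and alignment ends, in a line 2 library. The treatment labels differed in 4 of these pairs. Line 1 APH experiment A had 71.2% of its far junctions in line 2 DMSO experiment A, and line 1 APH experiment C had 67.2% in line 2 DMSO experiment D. Line 1 DMSO experiments A and D had 61.4% and 63.8% of theirs in the line 2 APH pool. Of the 62 Fhit junctions in the pool labelled NPC line 2 bait 15 DMSO, 40 were also present in the pool labelled line 1 APH and 10 in the pool labelled line 1 DMSO. Of the 61 in the pool labelled NPC line 2 bait 15 APH, 39 were also present in line 1 APH and 5 in line 1 DMSO. Which label is right cannot be told from the tables, so results resting on these pools are followed by the values without the NPC pools of bait 15, which leaves 363 Fhit junctions. Values of the lettered experiments, of the baits and of the overlap classes summed over all pools are given with every pool only.

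**Figure D1:**
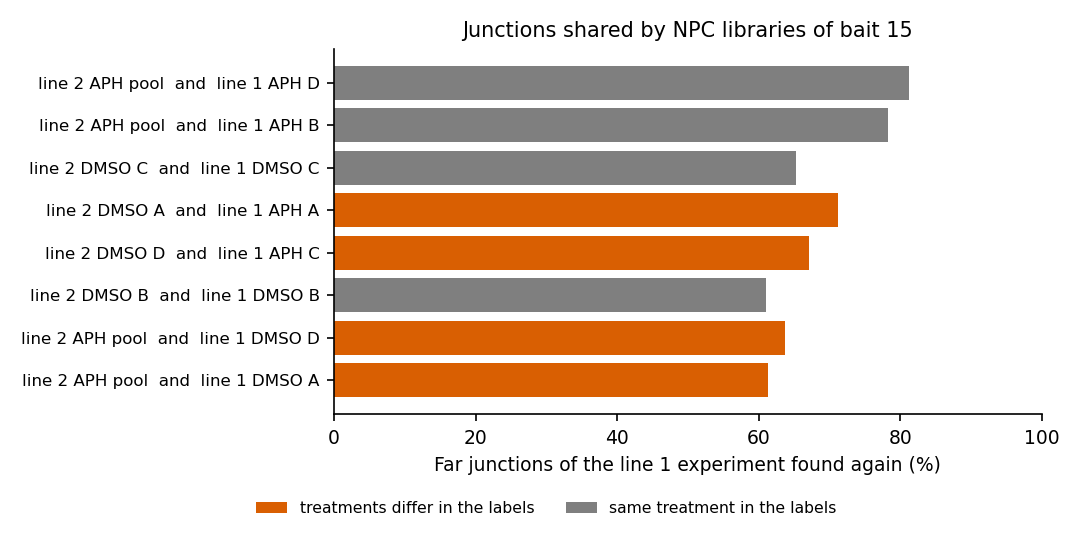
Percentage of the far junctions of each line 1 NPC bait 15 experiment (x axis) that were found again in a line 2 library, for the 8 matched pairs. The 4 pairs whose treatment labels differ lie between 61.4% and 71.2%.

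Individual junction reads show this sharing directly. Each read below runs 5′ to 3′ through the end of the bait on chromosome 15 into the Fhit window, and the capitals mark the bases that bait and Fhit sequence have in common at the join. The first pair joins position 10639182 on the plus strand and the second joins position 10739403 on the minus strand.
NPC line 1 bait 15 APH experiment A: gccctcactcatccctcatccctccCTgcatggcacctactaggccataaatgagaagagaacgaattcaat
NPC line 2 bait 15 DMSO experiment A: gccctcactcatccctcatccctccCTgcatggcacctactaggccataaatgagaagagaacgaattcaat
NPC line 1 bait 15 APH experiment A: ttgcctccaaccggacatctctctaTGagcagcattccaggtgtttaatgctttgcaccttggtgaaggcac
NPC line 2 bait 15 DMSO experiment A: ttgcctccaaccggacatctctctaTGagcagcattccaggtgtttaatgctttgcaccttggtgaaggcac
Apart from this sharing, the junctions of the Fhit window were spread over many positions. The 619 junctions lay at 462 distinct positions and strands, 106 of them seen in more than 1 pool. Without the NPC pools of bait 15, 321 distinct positions held the 363 junctions, and 7 were seen in more than 1 pool. No position was read more than 4 times, and the busiest 10 kb held 14 junctions, 2.26% of all. It began at position 12390001, near the upper edge of the window.

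The Fhit share was highest in ESC treated with APH. It averaged 0.123% ± 0.046 of far junctions in NPC with APH, 0.0834% ± 0.020 in NPC with DMSO, 0.211% ± 0.091 in ESC with APH and 0.1003% ± 0.062 in ESC with DMSO (SD, n = 6 pools each). Without the NPC pools of bait 15 the NPC means were 0.131% ± 0.056 with APH and 0.0835% ± 0.018 with DMSO (SD, n = 4 each). Across all windows of this size off chromosomes 7, 12 and 15, the Fhit window ranked 144th of 896 by its share in NPC with APH, 395th in NPC with DMSO, 19th in ESC with APH and 260th in ESC with DMSO. Its share was 1.60 times the median window in NPC with APH and 3.09 times the median in ESC with APH. In DMSO the Fhit window stood at 1.08 times the median window in NPC and 1.31 times in ESC. Leaving bait 15 out of the NPC pools gave rank 81 and 1.80 times the median in NPC with APH, and rank 430 and 1.03 times the median in NPC with DMSO.

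**Figure D2:**
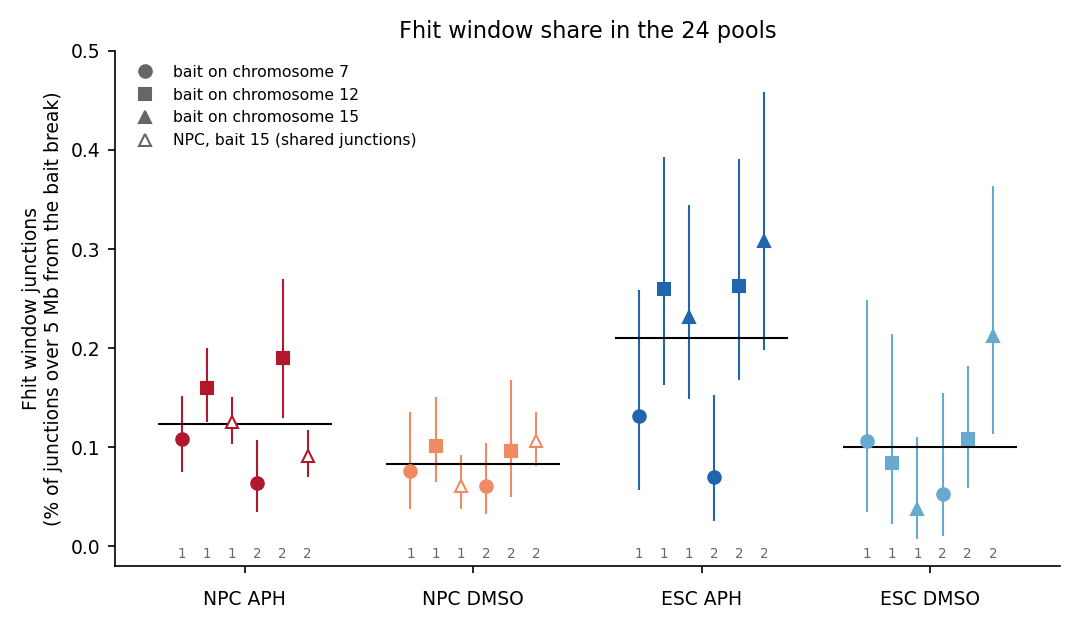
Fhit window junctions as a percentage of far junctions (y axis) in the 24 pools, grouped by cell type and treatment. Symbols mark the bait, the small digit is the line, error bars are exact 95% binomial intervals and black lines are the means of 6 pools. The ESC pools with APH of baits 12 and 15 lie between 0.232% and 0.308%, above every NPC pool.

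In ESC, the Fhit share was higher with APH than in the matching DMSO pool for every line and bait. Line 1 pools with APH held 0.131%, 0.259% and 0.232% for baits 7, 12 and 15, against 0.106%, 0.0839% and 0.0378% in line 1 pools with DMSO. Line 2 pools with APH held 0.0702%, 0.263% and 0.308% for the same baits, against 0.0531%, 0.108% and 0.213% in line 2 pools with DMSO. The APH pools were higher in 6 of 6 pairs, by 1.23 to 6.13 times, although the ranges of the conditions overlapped. The counts behind these values were 6 to 24 junctions per pool with APH and 3 to 14 with DMSO, so single ratios are imprecise. Counting each position and strand once per pool gave 6 to 21 with APH and 3 to 9 with DMSO. A quasi-likelihood fit of junction counts in 999 windows of 2.5 Mb, made with edgeR, gave a log2 fold change of 1.23 ± 0.29 (SE) for Fhit. In that fit 11 windows, 1.1% of those tested, were called higher with APH at an adjusted p under 0.05, and none was called lower. With no adjustment 97 windows had a p under 0.05 in either direction, and DESeq2 called 10 windows higher and 0 lower. The Fhit window was among the 11; having been chosen with such results known, it is no independent finding. The call was lost when line 1 bait 12, line 1 bait 15 or line 2 bait 12 was left out, with log2 fold changes of 1.15, 0.98 and 1.16.

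In NPC the difference was smaller. Line 1 pools with APH held 0.108%, 0.159% and 0.1254% for baits 7, 12 and 15, against 0.0756%, 0.101% and 0.0607% in line 1 pools with DMSO. Line 2 pools with APH held 0.0642% and 0.190% for baits 7 and 12, against 0.0613% and 0.0958% in line 2 pools with DMSO. The pools labelled line 2 bait 15 went the other way, with 0.0913% for APH and 0.106% for DMSO. APH pools were thus higher in 5 of 6 pairs, and in 4 of 4 pairs without bait 15, by 1.05 to 1.98 times. The log2 fold change was 0.57 ± 0.20 (SE) with all pools, 0.82 ± 0.22 without the NPC pools of line 2 bait 15 and 0.68 ± 0.27 without the NPC pools of bait 15. In NPC, 59 of 999 windows (5.91%) were called higher with APH and 2 (0.2%) lower, 61 in all (6.11%). The Fhit window was not called with all pools nor without the NPC pools of bait 15, where 53 of 988 windows were called. It was called without the NPC pools of line 2 bait 15 alone, where 94 of 996 windows were, 86 higher and 8 lower.

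The NPC response minus the ESC response was -0.67 ± 0.36 (SE) on the log2 scale with all pools and -0.54 ± 0.41 without the NPC pools of bait 15. This difference did not pass the threshold in either case. With all pools 7 of 999 windows did (0.701%), 3 higher (0.3%) and 4 lower (0.4%). Without the NPC pools of bait 15, 12 of 988 did, 7 higher and 5 lower. In the window narrowed to 500 to 2000 kb from its start, the difference was -1.15 ± 0.43 with all pools and -0.90 ± 0.49 without the NPC pools of bait 15, and it did not pass the threshold there either. With APH, the Fhit share was lower in NPC than in ESC in 6 of 6 pairs of the same line and bait, at 0.296 to 0.914 times the ESC share; in the 4 pairs left without bait 15 the range was 0.615 to 0.914. The log2 ratio of NPC to ESC was -0.81 ± 0.24 (SE) with all pools and -0.53 ± 0.29 without the NPC pools of bait 15. The first passed the threshold, and the second did not. Of 999 windows with APH, 50 (5.01%) were called lower in NPC and 48 (4.8%) higher, 98 in all (9.81%). Without the NPC pools of bait 15, 35 were called lower and 48 higher, 83 of 988 in all. With DMSO, NPC were higher than ESC in 3 of 6 pairs (2 of 4 without bait 15), and the log2 ratio of -0.22 ± 0.32 turned to 0.02 ± 0.39 without the NPC pools of bait 15. Neither was called, and with all pools 14 of 999 windows were (1.4%), 7 in each direction (0.701%). The fit without the NPC pools of bait 15 called 12 of 988 windows, 6 in each direction.

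With APH, the summed Fhit share was lowest for the bait on chromosome 7. In NPC with APH, the bait 7 pools of lines 1 and 2 held 34 and 14 Fhit junctions, a summed share of 0.0903% [0.0666, 0.120]. The bait 12 pools of NPC with APH held 0.167% [0.137, 0.203] and those labelled bait 15 held 0.111% [0.0948, 0.129]. The intervals of baits 7 and 15 thus overlapped in NPC with APH. The line 1 bait 7 pool, at 0.108%, was above the pool labelled line 2 bait 15, at 0.0913%. In ESC with APH, bait 7 gave 0.0956% [0.0523, 0.160], bait 12 gave 0.261% [0.191, 0.348] and bait 15 gave 0.265% [0.195, 0.351]. With DMSO the intervals of the 3 baits overlapped, and in line 1 the bait 7 pools held more than those of bait 15, at 0.0756% against 0.0607% in NPC and 0.106% against 0.0378% in ESC. These differences between baits were not tested. In ESC with APH, lines 1 and 2 had 54 Fhit junctions each and summed shares of 0.217% and 0.212%. Among the single lettered experiments, the shares ran between 0.0542% and 0.258% in 19 NPC experiments with APH and between 0 and 0.203% in 24 NPC experiments with DMSO. They ran between 0 and 0.516% in 28 ESC experiments with APH and between 0 and 0.535% in 16 with DMSO. The highest ESC values were those of line 2 bait 12 APH experiment C, with 10 Fhit junctions, and of line 2 bait 15 DMSO experiment D, with 5. The highest NPC value with APH was that of line 2 bait 12 experiment D, and the highest with DMSO was that of the library labelled line 2 bait 15 DMSO experiment A. No Fhit junction was seen in 2 of the NPC experiments with DMSO, 4 of the ESC experiments with APH and 2 of those with DMSO; in the deepest of these, NPC line 2 bait 7 DMSO experiment C with 4284 far junctions, a count of 0 allows a share of up to 0.0700%, taken as 3 counts, and the exact interval ends at 0.0861%.

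Summed over pools, the window's ESC junctions with APH were concentrated in a narrow core. The stretch between 500 and 1250 kb from the window start held 131 of 325 Fhit junctions in NPC with APH, 60 of 144 in NPC with DMSO, 75 of 108 in ESC with APH and 12 of 42 in ESC with DMSO. As a percentage of Fhit junctions this was 40.3% [34.9, 45.9] in NPC with APH and 69.4% [59.8, 78.0] in ESC with APH. Leaving out bait 15 gave 34.6% [27.1, 42.8] in NPC with APH. Relative to depth, the core held 4.83 junctions per 10000 far junctions in NPC with APH, 3.60 in NPC with DMSO, 14.9 in ESC with APH and 2.85 in ESC with DMSO. With bait 15 left out of the NPC pools, it held 4.57 in NPC with APH and 1.94 in NPC with DMSO. Counting each position and strand once per pool, the core held 128 junctions in NPC with APH and 56 in NPC with DMSO. In this count it held 61 in ESC with APH and 9 in ESC with DMSO. Bait 15 left out, the NPC pools held 53 with APH and 13 with DMSO. The bounds of this core were set after the profile was seen, and it was not tested. The core share of far junctions averaged 0.146% ± 0.089 in ESC with APH and 0.0260% ± 0.014 in ESC with DMSO (SD, n = 6 each), and ESC pools with APH ran between 0.0351% and 0.244%. The ESC bait 7 pools with APH held only 3 core junctions each, 0.0492% in line 1 and 0.0351% in line 2. Both lay within the range of NPC pools with APH, 0.0275% to 0.0674%, which was the same without bait 15. The single busiest 250 kb bin in ESC with APH, at 750 to 1000 kb, held 35 junctions, 32.4% of its Fhit junctions. The same bin was also the busiest in NPC with APH, with 67 junctions or 20.6%. Leaving out bait 15, it held 27 junctions in NPC with APH (17.6%), and the bin at 2250 to 2500 kb held 29 (19.0%).

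**Figure D3:**
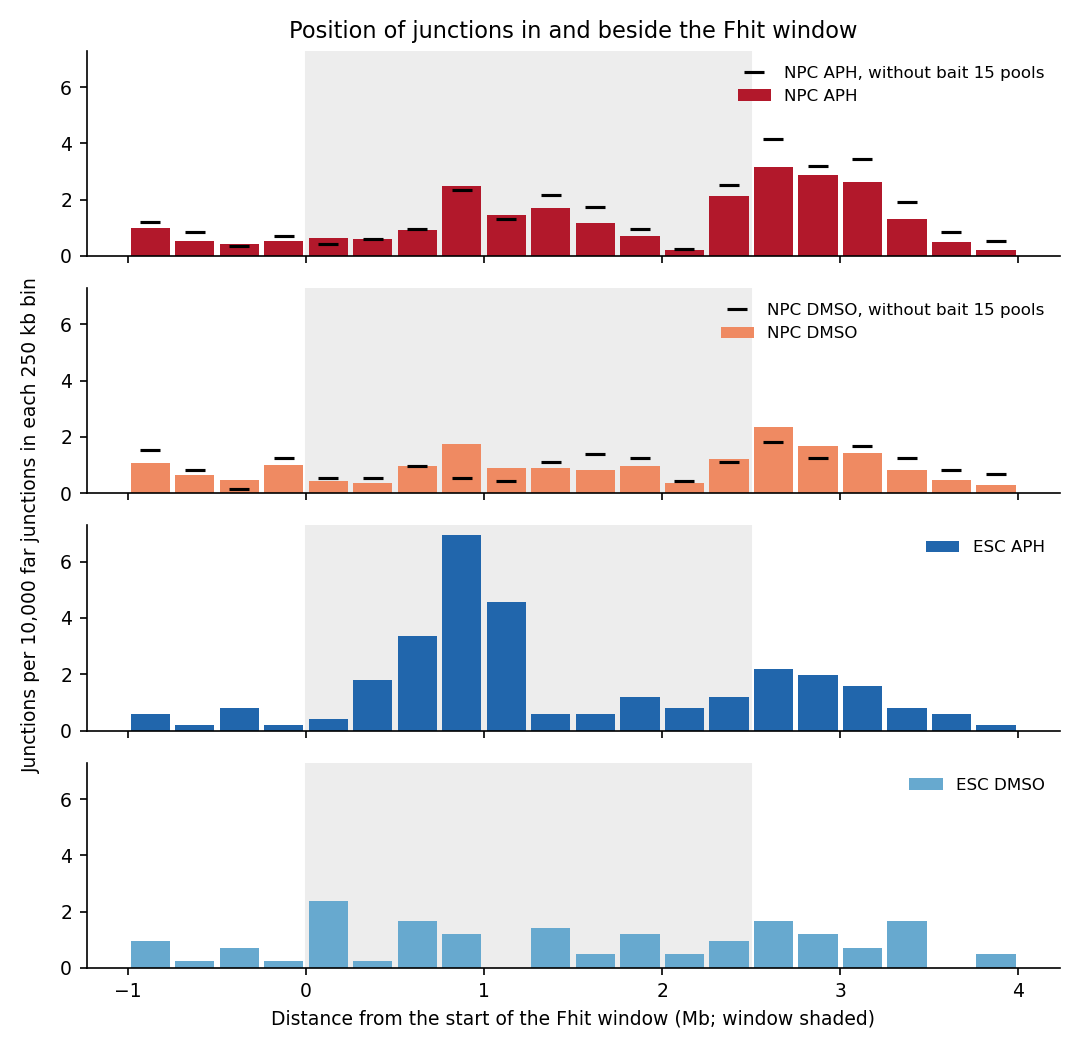
Junctions per 10000 far junctions in 250 kb bins (y axis) against distance from the start of the Fhit window in Mb (x axis), for the 4 conditions, with the window shaded. Black dashes give the NPC values without the bait 15 pools. ESC with APH peak at 6.94 in 1 bin of the window, while NPC with APH have 2.47 in that bin and a second rise that crosses the upper edge of the window.

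The next stretch of the window, 1250 to 2000 kb from its start, showed no such excess in ESC with APH. It held 3.58 junctions per 10000 far junctions in NPC with APH, 2.70 in NPC with DMSO, 2.38 in ESC with APH and 3.09 in ESC with DMSO. Leaving out bait 15 gave 4.83 in NPC with APH and 3.75 in NPC with DMSO. The median position of Fhit junctions, in pools with at least 10 of them, was 1256 kb from the window start in NPC with APH and 903 kb in ESC with APH, over 4 pairs of the same line and bait. It was higher in NPC in 4 of 4 pairs, by 354 ± 200 kb (SD). An exact sign-flip test gave p = 0.125, the smallest that 4 pairs allow, and 0.729 after Benjamini-Hochberg adjustment over 7 tests. With bait 15 left out, 2 pairs remained, both of bait 12, with differences of 599 and 433 kb. In NPC, the median position with APH was 1274 kb and with DMSO 1372 kb, a difference of -97.8 ± 196 kb over 6 pairs (SD; exact sign-flip p = 0.25, adjusted 0.729), and -118 ± 182 kb over 4 pairs without bait 15.

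The upper edge of the window cut through a second rise. After a gap at 2000 to 2250 kb from the window start, with 6 junctions in NPC with APH and 4 in ESC with APH, the bin at 2250 to 2500 kb held 58 junctions in NPC with APH, 20 in NPC with DMSO, 6 in ESC with APH and 4 in ESC with DMSO. The bin just outside the window, 2500 to 2750 kb, held 86, 39, 11 and 7 in the same conditions, and the next 3 bins, up to 3500 kb, held 78, 71 and 36 in NPC with APH. Leaving out bait 15, the bin inside the edge held 29 junctions in NPC with APH and 8 in NPC with DMSO, and the bin outside it 48 and 13. At the lower edge, the bin just outside held 14 junctions in NPC with APH and the bin just inside 17. The junctions nearest the edges were at 9994528 outside and 10023110 inside the lower one, and at 12497926 inside and 12500374 outside the upper one. In the GRCm38 gene order, Fhit is followed by Ptprg, a receptor-type protein tyrosine phosphatase, as the next coding gene, with Cfap20dc as the coding gene before it. The edges of these genes were not placed on mm9, so the second rise is not assigned to a gene. Narrowing the window to 500 to 2000 kb from its start, which leaves that rise out, gave a log2 fold change with APH of 0.52 ± 0.22 (SE) in NPC and 1.66 ± 0.35 in ESC. In the narrowed window the log2 ratio of NPC to ESC with APH was -1.01 ± 0.25, or -0.69 ± 0.32 without the NPC pools of bait 15.

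Junctions of both orientations were present in each condition. On the plus strand the sequenced Fhit side extends to higher coordinates from the join, and on the minus strand to lower ones. The plus strand made up 46.8% [41.2, 52.4] of Fhit junctions in NPC with APH, 54.2% [45.7, 62.5] in NPC with DMSO, 47.2% [37.5, 57.1] in ESC with APH and 52.4% [36.4, 68.0] in ESC with DMSO. Leaving out bait 15, it made up 83 of 153 junctions in NPC with APH, or 54.2% [46.0, 62.3], and 40 of 60 in NPC with DMSO, or 66.7% [53.3, 78.3]. By pool, the mean in NPC was 49.8% with APH and 60.6% with DMSO, a difference of -10.8 ± 25.01 percentage points over 6 pairs (SD; exact sign-flip p = 0.3125, adjusted 0.729), and -12.8 ± 32.0 over 4 pairs without bait 15. With APH, the mean over 4 pairs was 48.9% in NPC and 48.8% in ESC (exact sign-flip p = 1, adjusted 1); in the 2 pairs of bait 12 alone NPC were higher by 14.6 ± 5.83 percentage points (SD). The wide spread of these differences leaves shifts of many percentage points unresolved.

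Plus-strand junctions lay at higher coordinates than minus-strand junctions in the middle of the window in pools with APH. Over the whole window, the medians of NPC pools with APH were 1337 kb for the plus strand and 1435 kb for the minus strand, a difference of -98.0 ± 503 kb over 6 pools (SD; exact sign-flip p = 0.844, adjusted 0.984). That value rests on 1 pool, line 2 bait 7, with 14 junctions, without which it was 93.1 kb, and without the NPC pools of bait 15 it was -293 ± 515 kb. Between 500 and 2000 kb from the window start the plus-strand median was the higher one in 6 of 6 NPC pools with APH, by 245 ± 124 kb, and in 4 of 4 without bait 15, by 214 ± 145 kb (SD). In ESC with APH it was higher in 6 of 6 pools, by 184 ± 150 kb. In DMSO, with fewer junctions, it was higher in 3 of 6 NPC pools (1 of 4 without bait 15) and in 2 of 4 ESC pools that had both strands. Bin by bin, NPC with APH had 40 minus-strand and 27 plus-strand junctions at 750 to 1000 kb, and 15 minus-strand and 31 plus-strand junctions at 1250 to 1500 kb. With bait 15 left out these counts were 13 minus-strand and 14 plus-strand in the first bin, which had no minus-strand excess, and 8 and 17 in the second.

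**Figure D4:**
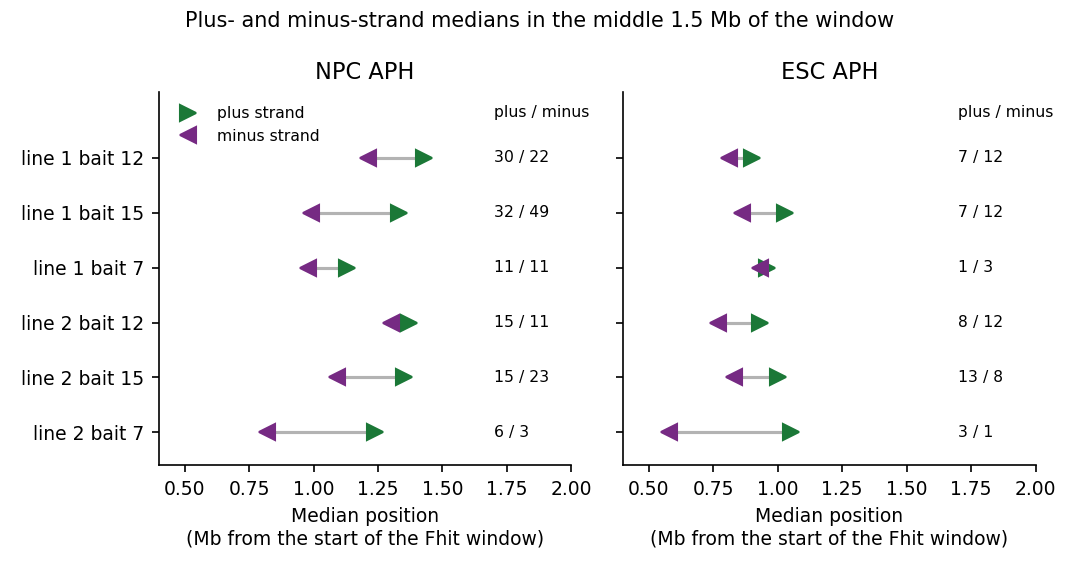
Median position of plus-strand (right-pointing) and minus-strand (left-pointing) junctions between 500 and 2000 kb from the window start, in Mb from that start (x axis), in the 6 NPC and 6 ESC pools with APH; the digits give the number of junctions on each strand. The plus-strand marker lies to the right in all 12 pools, and the ESC line 1 bait 7 and line 2 bait 7 pools rest on 4 junctions each.

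Most Fhit junctions had a few bases in common between bait and Fhit sequence; joining through such short shared stretches is the route known for cells without XRCC4. Of 619 junctions, 460 shared at least 1 base, 33 were blunt and 126 had inserted bases. An overlap of 2 bases was the most frequent class, with 141 junctions or 22.8%, against 20.8% of other far junctions off chromosomes 7, 12 and 15. Examples from the core of the window follow, with the shared bases in capitals; the join of the last one is blunt.
NPC line 1 bait 7 APH experiment B, position 10516397, plus strand: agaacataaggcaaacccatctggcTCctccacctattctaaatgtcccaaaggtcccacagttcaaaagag
ESC line 2 bait 7 APH experiment A, position 10576293, minus strand: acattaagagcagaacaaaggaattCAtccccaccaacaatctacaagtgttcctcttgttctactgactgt
NPC line 2 bait 7 APH experiment A, position 10681212, minus strand: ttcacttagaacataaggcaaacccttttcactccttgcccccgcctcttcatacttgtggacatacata
In NPC with APH, 76.6% of Fhit junctions and 75.7% of other far junctions shared at least 1 base, a mean difference of 0.892 ± 8.00 percentage points over 6 pools (SD; exact sign-flip p = 0.8125, adjusted 0.984), or 3.96 ± 8.06 without bait 15. Inserted bases were present in 16.1% of Fhit junctions and 17.4% of other far junctions, a mean difference of -1.29 ± 5.73 percentage points (SD; exact sign-flip p = 0.625, adjusted 0.984), or -2.91 ± 6.63 without bait 15. Summed over pools, inserted bases were present in 18.5% of Fhit junctions in NPC with APH and in 27.8% in ESC with APH. By pool these shares ran between 8.82% and 24.3% in NPC and between 0 and 54.5% in ESC, and ESC were higher in 4 of 6 pairs, so the ranges overlapped; this difference was not tested.

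**Figure D5:**
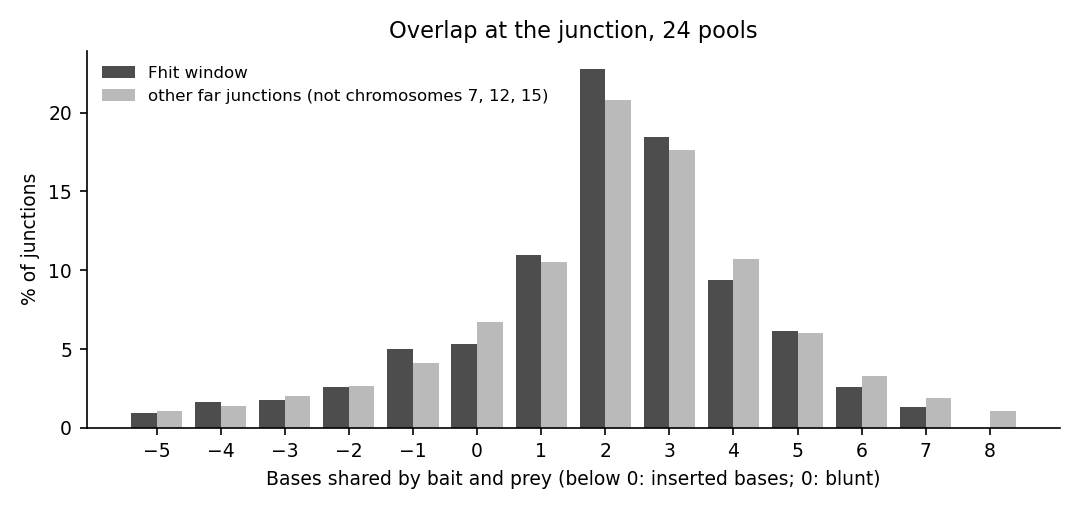
Percentage of junctions (y axis) by the number of bases that bait and prey share (x axis; negative values are inserted bases and 0 is blunt), for the 619 Fhit junctions and for other far junctions off chromosomes 7, 12 and 15, all 24 pools. Both peak at 2 bases, with 22.8% and 20.8%.

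Among 832 windows with at least 200 far junctions, those whose share followed Fhit most closely over the 24 pools were listed by Pearson's r of log2 shares, as a description, since all values of a pool share its libraries and depth. The closest were 2.5 to 5.0 Mb of chromosome 1 (r = 0.640), 130.0 to 132.5 Mb of chromosome 5 (0.634), 85.0 to 87.5 Mb of chromosome 10 (0.608), 132.5 to 135.0 Mb of chromosome 5 (0.583) and 7.5 to 10.0 Mb of chromosome 19 (0.577). The median r over all 832 windows was -0.018. Over the 20 pools without NPC bait 15, the r of these 5 windows lay between 0.605 and 0.647. Both chromosome 5 windows overlap the interval set for Auts2, a very large gene with a role in neuronal development. That interval held 0.445% of far junctions in NPC with APH, 0.222% in NPC with DMSO, 0.823% in ESC with APH and 0.0855% in ESC with DMSO. The interval set for Wwox, an oxidoreductase gene at another common fragile site, lay on chromosome 8 and held 0.205%, 0.155%, 0.772% and 0.145% in the same conditions. Auts2 and Wwox were taken up as other clusters led by ESC in these data, so a direction shared with Fhit is no finding. All 3 loci had a higher summed share in ESC with APH than in NPC with APH. Their APH to DMSO ratios in ESC were 2.15 for Fhit, 9.63 for Auts2 and 5.33 for Wwox. In NPC these ratios were 1.39 for Fhit, 2.00 for Auts2 and 1.33 for Wwox. Leaving out bait 15, NPC with APH and NPC with DMSO held 0.373% and 0.122% in the Auts2 interval and 0.179% and 0.107% in the Wwox interval, and the ratios were 1.58 for Fhit, 3.05 for Auts2 and 1.68 for Wwox.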

How the data were processed

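The authors deposited 24 tables of HTGTS junctions, 1 per cell type, line, bait and treatment. They used Bowtie2 and the mm9 build, per the submitters' processing notes; the junction caller is not given in the sources used here. Members and lists were chosen with earlier results of these data known. Each read name was used once per table, which removed 18609 of 2037403 lines and left 2018794 junctions, 32896 to 211923 per pool. Junction counts in windows of 2.5 Mb, over junctions more than 5 Mb from the own bait break, were made here from the deposited tables. Windows were tested with edgeR 4.0.16 (R 4.3.3; quasi-likelihood, TMM, filterByExpr with a minimum count of 5, line and bait as a block, Benjamini-Hochberg adjustment). The block follows the labels' line and bait: the APH and DMSO pools of a pair deviated together, with r between 0.433 and 0.677 over 6 NPC pairs and between 0.268 and 0.35 over 6 ESC pairs. Position, strand and junction structure were compared by exact two-sided sign-flip tests over pairs of pools (scipy 1.17.1), using pools with at least 10 Fhit junctions for strand and position. The overlap of bait and prey was taken from the alignment ends. Alternatives were DESeq2 1.42.0, other filters and library sizes, lines, single experiments, left-out pools and a narrowed window. Scripts were tested on simulated data. P-values measure the spread between pools, which may be technical. Experiment letters were missing or did not match the labels in 3 tables, used only as pools. Named windows were the 5 with the highest likeness to Fhit. Gene names, order and length came from the RefSeq table for GRCm38, with no coordinates taken from it.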

Additional observations from a re-analysis of the deposited data

Results flagged for a closer look

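In 3 of 20 groups of single experiments tested, 1 experiment lay far from the others of its line, bait and treatment in its Fhit share of far junctions. No pool stood out in 12 further groups, which were the share, plus-strand share and median position of the pools of each condition. Chance flags about 1 in 20 groups. NPC line 1 bait 15 APH experiment A had 0.221%, and it is the experiment that had 71.2% of its far junctions in the library labelled line 2 bait 15 DMSO experiment A, whose Fhit share was 0.203%. ESC line 1 bait 7 APH experiment D had 0.491% [0.0596, 1.76], from only 2 Fhit junctions among 407 far junctions. ESC line 2 bait 12 DMSO experiment C had 0.1695%, from 5 Fhit junctions, against 3 in each of experiments A, B and D.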

How the results depend on the processing

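Passing or losing the threshold is given here as a description of the processing, since the locus was chosen with such results known. The Fhit log2 fold change with APH stayed positive under all 19 alternatives in each cell type, between 0.29 and 0.86 in NPC and between 0.92 and 1.69 in ESC. In NPC the fold change passed the threshold with each position and strand counted once (0.56), in line 1 alone (0.86) and without the NPC pools of line 2 bait 15 (0.82). These fits called 77 of 983, 67 of 998 and 94 of 996 windows in either direction. The NPC fold change also passed in single experiments with line and bait as a block (0.71) and with the letter as replicate block (0.74). Among 301 windows, these fits called 114 and 104 in either direction. Those fits treat lettered libraries as replicates, though nothing in the labels says they came from separate cultures. They leave out NPC line 2 bait 15, where the APH to DMSO ratio was 0.862. ESC bait 7, with ratios of 1.23 in line 1 and 1.32 in line 2, is left out too. In NPC the fold change ran between 0.41 and 0.80 when 1 line and bait was left out. It passed without line 2 bait 15 (0.80), where 97 of 997 windows were called. In ESC it lost the threshold in line 2 alone (0.92) and without the line and bait block (1.15), and ran between 0.98 and 1.46 when 1 line and bait was left out, with the 3 losses given above. The NPC to ESC log2 ratio with APH lost the threshold in line 1 (-0.73), in line 2 (-0.93), without the line and bait block (-0.80), without the NPC pools of line 2 bait 15 (-0.52), without those of bait 15 (-0.53) and without those in the narrowed window (-0.69), with -0.90 to -0.64 on leaving out 1 line and bait, where it was lost without line 2 bait 15 (-0.64). The NPC minus ESC response ran between -1.15 and -0.41 over 19 alternatives and passed in none. With DMSO the NPC to ESC log2 ratio turned positive in the narrowed window (0.10), in line 1 (0.094), without the NPC pools of bait 15 (0.021) and without those in the narrowed window (0.21), with -0.34 to 0.027 on leaving out 1 line and bait. With the letter as replicate block the log2 fold changes were 0.74 in NPC, 1.30 in ESC and -0.57 for their difference. Letters deviated together (r over 0.1) in 1 of 19 NPC and 1 of 16 ESC pairs. Counts per window were low, with 679 to 3644 far junctions in the lettered ESC DMSO experiments. This r therefore cannot decide whether APH and DMSO experiments of a letter share a culture. Of the tests by pool, the plus-strand difference of NPC and ESC turned to -4.29 with positions once (-6.00 to 6.56 on leaving out 1 line and bait). The plus to minus strand distance turned to 100.3 kb with positions once, 244.9 kb in the narrowed window and 214.2 kb there without NPC bait 15 (-192.3 to 93.1). The APH to DMSO position difference turned to 33.8 kb in the narrowed window. The microhomology difference turned to -0.075 at 2 or more bases and -2.87 at 4 or more (-1.40 to 2.61), and the insertion difference ran between -2.84 and 0.050. Of 999 windows, 61 were called either way for APH in NPC (6 to 114 over the alternatives) and 11 in ESC (4 to 21). NPC against ESC gave 98 with APH (23 to 101) and 14 with DMSO (0 to 18). The difference of responses gave 7 (0 to 25). The maxima 114, 21 and 25 are of 301 windows, 18 of 283. The causes of these changes were not tested. ESC depth limits single ratios.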

Other observations

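Smaller overlaps were present in other libraries. NPC line 1 bait 12 APH experiment C had 39.2% of its far junctions in NPC line 2 bait 12 APH experiment D and 14.1% in experiment C of that pool. Of the far junctions of ESC line 1 bait 12 DMSO experiment A, 31.1% were found in NPC line 1 bait 12 DMSO experiment B. Among Fhit junctions, the NPC bait 12 pools with APH of both lines had 3 in common, of 74 in line 1 and 31 in line 2.

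The rise that starts inside the upper edge of the Fhit window had its highest counts outside it. Between 2500 and 3000 kb from the window start it held 6.05 junctions per 10000 far junctions in NPC with APH, 4.02 in NPC with DMSO, 4.17 in ESC with APH and 2.85 in ESC with DMSO. Without the NPC pools of bait 15 the values were 7.33 in NPC with APH and 3.06 in NPC with DMSO. This stretch was chosen after the profile was seen and was not tested.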
